A study of Mus musculus with 6 samples.

Results

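Translation initiation factors bring the small ribosomal subunit, the initiator tRNA and the mRNA together before a protein chain begins. Their transcripts were examined in SCC7, an established mouse squamous cell carcinoma line, as every gene whose symbol starts with Eif and a digit from 1 to 6, leaving out the 4 kinases of eIF2 (Eif2ak1 to Eif2ak4). The rule took 51 of the 17030 genes measured and used no measured value. RNA-seq libraries came from untreated cells (controls 1 to 3) and from cells given radiotherapy (irradiated 1 to 3), for which the protocol names a dose of 9 Gy. That protocol is attached to all 6 samples, but the controls are labelled as having had no treatment. All 6 carry the time label day 0, so how long after irradiation the cells were harvested is not known. Separate cultures are not named, so the p-values reflect sample-to-sample spread that may be technical.

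In the textbook sequence of events, eIF2 delivers the initiator tRNA to the small subunit and eIF2B reloads eIF2 with GTP. The cap complex eIF4F (the cap-binding protein eIF4E, the scaffold eIF4G and the helicase eIF4A) recruits the mRNA, eIF3 bridges it to the ribosome, eIF1 and eIF1A guard the choice of start codon, and eIF5 and eIF5B complete the joining of the large subunit. Initiation is held back when stress kinases phosphorylate eIF2, and when 4E-BP repressors, which mTORC1 inactivates, occupy eIF4E.

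Values are FPKM, read levels scaled to transcript length and to the library total, so that levels can be compared between genes. FPKM summed to between 693961 and 982553 in the controls and between 652691 and 663489 in the irradiated libraries, and the number of reads behind them is unknown. Initiation factors made up 0.95% to 1.14% of that sum in controls and 1.04% to 1.08% in irradiated cells. Among 7 epithelial markers, Krt8 and Krt18 were abundant while Krt5, Krt14, Epcam, Cdh1 and Trp63 did not exceed 1.10 FPKM in any library. The 7 summed to 1715, 1890 and 699.6 FPKM in controls 1 to 3 and to 484.5 to 496.4 in irradiated cells, and Krt18 fell (log2 fold change -1.82, limma adjusted p = 0.0261). Leukocyte and endothelial markers summed to at most 0.15 and 0.62 FPKM. Of 5 fibroblast markers Col1a1 and Dcn rose (limma adjusted p = 0.00474 and 0.0086), Thy1 was at or near 0, and their sum was 108.7 to 197.6 FPKM in controls and 164.3 to 187.9 in irradiated cells. The part of these marker differences in the results was not tested.

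Irradiated cells had less transcript of the start codon factor Eif1, the eIF3 subunit Eif3i and the helicase cofactor Eif4b, and more of the scaffold Eif4g3. These were the 4 called members, at a limma adjusted p below 0.05, among the 48 that passed a filter of at least 1 FPKM in at least 3 libraries. They are 8.33% of those tested, against 12.0% of all 11103 genes tested. The 1 member called higher is 2.08%, against 9.24% of all genes, and the 3 called lower are 6.25%, against 2.77%. A further 13 members reached only an unadjusted p below 0.05, for 17 in all, where 38.3% of all genes did. In bulk RNA, fewer cells of a type and less RNA per cell cannot be told apart.

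**Figure D1:**
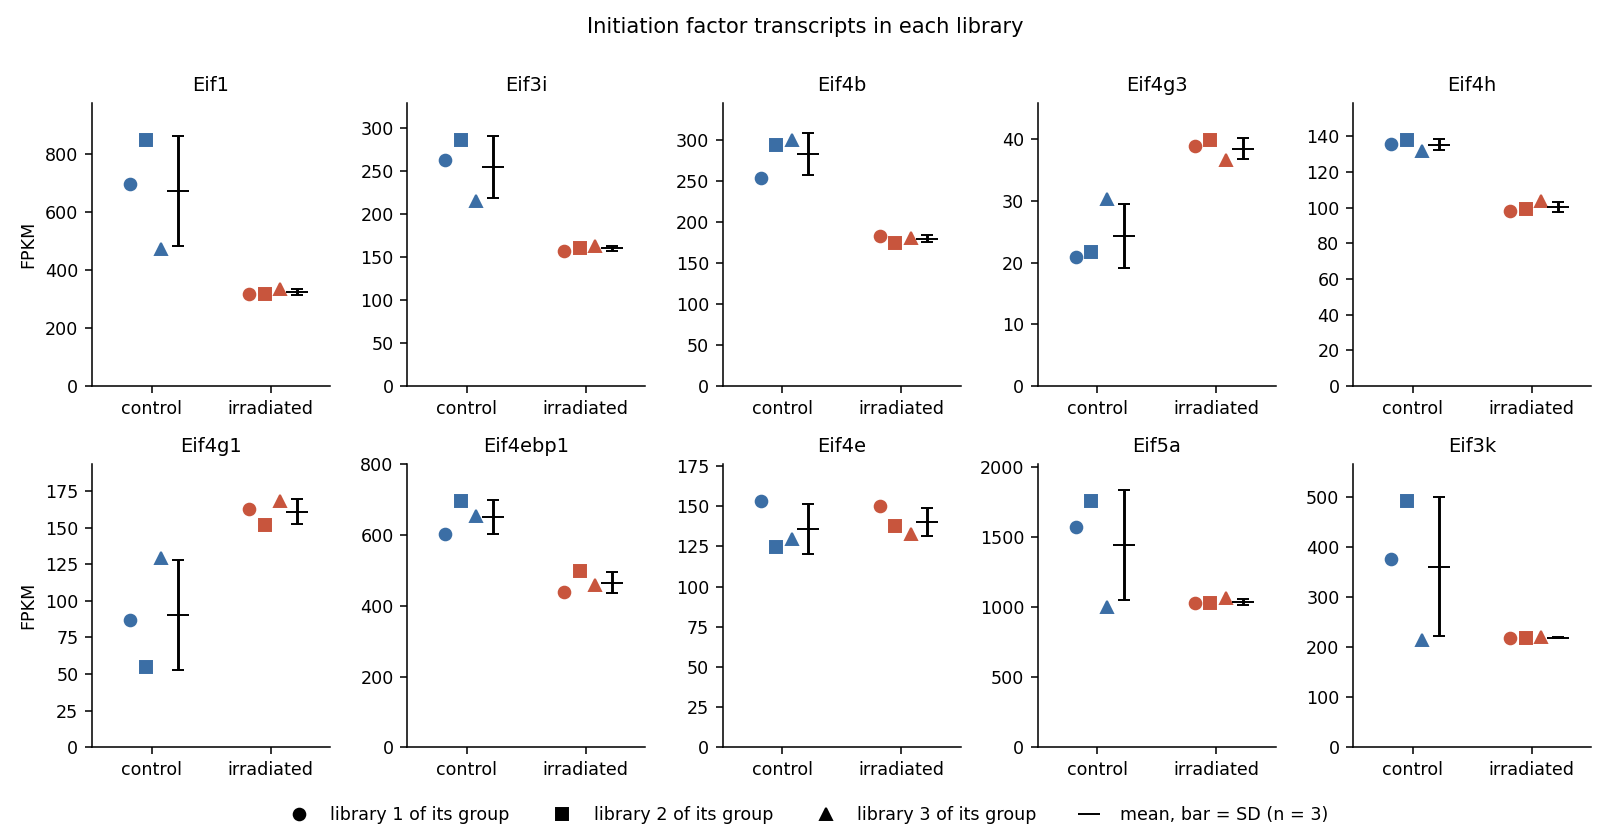
FPKM (vertical axes, starting at 0) of 10 initiation factors in each library, with the mean and SD of the 3 libraries of a group beside the points. Irradiated libraries lie clear of all controls for the first 7 genes, while for Eif5a and Eif3k control 3 lies at or just below the irradiated level and for Eif4e the groups overlap.

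The median log2 fold change of the 48 members (irradiated mean minus control mean, after adding 1 FPKM) was -0.25, with 31 below 0 and 17 above. Over all genes tested it was 0.17. After quantile normalization the members' median was -0.06 beside -0.01 for all genes, and after trimmed-mean scaling -0.41 beside 0.03. Which control was used mattered: the members' median was -0.36 against control 1 alone, -0.46 against control 2 alone and 0.01 against control 3 alone, where all genes gave 0.18, 0.29 and 0.07. The controls also varied more among themselves. A member's median SD on the log2 scale was 0.30 among controls and 0.07 among irradiated libraries, much as over all genes tested (0.30 and 0.08). The SD was larger among controls for 46 of the 48. The irradiated mean lay nearest to control 3 for 33 members, and for 19 its difference from control 3 had the opposite sign to its differences from controls 1 and 2. The sign was the same against each control for 26 members, higher for 10 and lower for 16. For the counts 46, 33, 19 and 26 the shares over all genes were not computed.

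**Figure D2:**
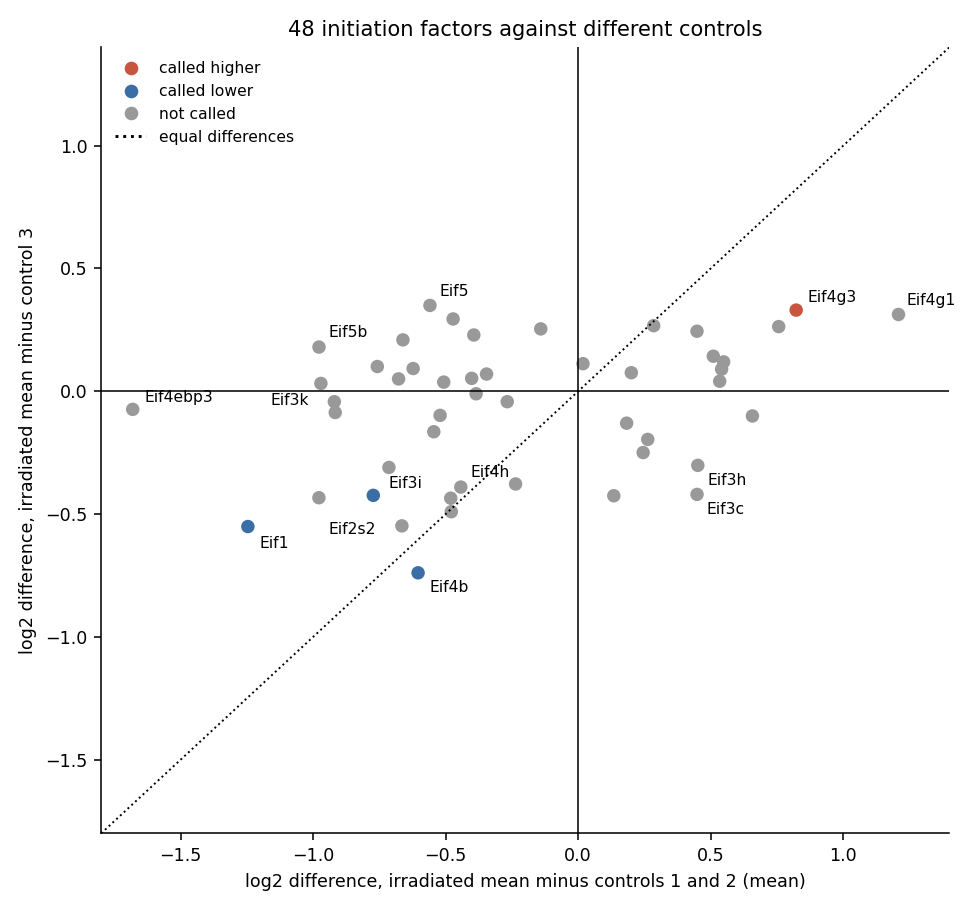
Each point is 1 of 48 initiation factors, with the log2 difference of the irradiated mean from controls 1 and 2 on the horizontal axis and from control 3 on the vertical axis. Most points lie closer to 0 vertically than horizontally, and Eif4b (-0.74 against control 3) differs more from control 3 than from the other controls, unlike the other 3 called members.

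All 3 irradiated libraries stood apart from all 3 controls for 18 members (37.5%, against 45.4% of all genes). They were above the controls for 8 (16.7%, against 31.8%), namely Eif2s3x, Eif3l, Eif4a2, Eif4e3, Eif4ebp2, Eif4enif1, Eif4g1 and Eif4g3. They were below for 10 (20.8%, against 13.7%), namely Eif1, Eif1ax, Eif2s2, Eif3f, Eif3i, Eif3j2, Eif3m, Eif4b, Eif4ebp1 and Eif4h. The balance of directions moved with library scaling. Over all genes 1026 were called higher and 308 lower, against 663 and 564 after quantile normalization and 711 and 445 after trimmed-mean scaling, which shifted the median of all genes from 0.17 to -0.01 and 0.03.

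**Figure D3:**
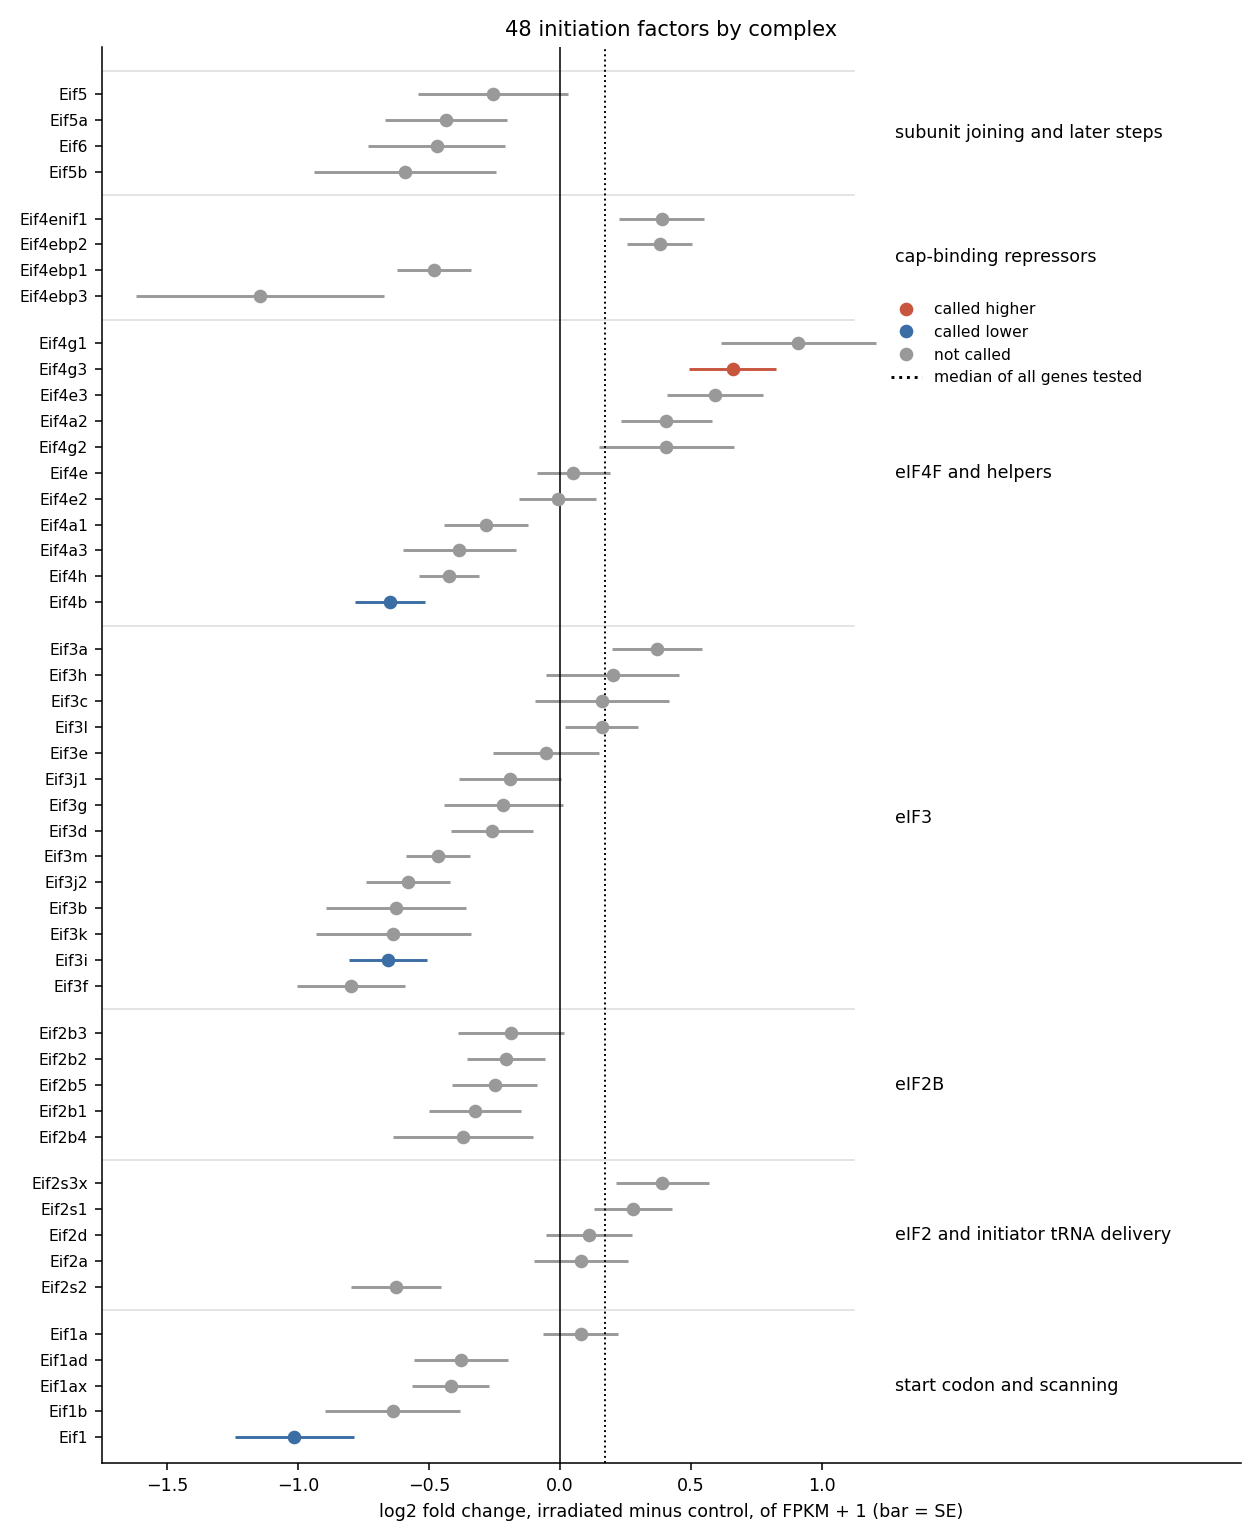
Log2 fold change of 48 initiation factors (horizontal axis, irradiated minus control, bars are SE), grouped by complex, with called members in colour and the median of all genes tested, 0.17, as a dotted line. All 5 eIF2B subunits and all 4 joining factors lie below 0 without being called. The group of the cap complex, its relatives and its helpers spreads from -0.65 (Eif4b) to 0.91 (Eif4g1).

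Each complex is too small for its number of calls to be read against the 12.0% of all genes called. The group of the cap complex eIF4F, its relatives and its helpers, with 11 of 13 members tested, held calls in both directions. Its median log2 fold change was 0.05. Eif4b (NCBI gene 75705, GRCm38.p6 chr15:102073773-102097173), which stimulates the helicase eIF4A, measured 254, 294 and 300.1 FPKM in controls 1 to 3 and 183, 175 and 181 in irradiated libraries 1 to 3. The groups did not overlap, and control 3, so often the control nearest the irradiated cells, was here the highest. Eif4b fell by 0.65 on the log2 scale (SE 0.13, limma adjusted p = 0.0313), from a mean of 283 ± 25.2 to 179 ± 4.16 FPKM (SD, n = 3 each). The call was lost with quantile normalization (-0.41, adjusted p = 0.117). Eif4h, a smaller helicase cofactor singled out after its values were seen, measured 136, 138 and 132 FPKM in controls and 98.3, 99.1 and 104 in irradiated cells. Its groups were far apart and tight, yet it missed the threshold (-0.43, SE 0.11, limma adjusted p = 0.0546).

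Eif4g3 (NCBI gene 230861, chr4:137991779-138207086), one of the scaffolds that hold the cap complex together, measured 20.9, 21.7 and 30.4 FPKM in controls and 38.9, 39.9 and 36.6 in irradiated cells. Every irradiated library was above every control, with control 3 in between. It rose by 0.66 on the log2 scale (SE 0.17, limma adjusted p = 0.0499), and the call was lost with trimmed-mean scaling (0.50, adjusted p = 0.0684). It was also lost with no filter (limma adjusted p = 0.0637), with a filter at 5 FPKM (0.0572) and with 0.1 FPKM added in place of 1 (0.0546). Eif4g1, the principal scaffold, had a larger difference and a larger spread, at 87.0, 54.7 and 129 FPKM in controls and 163, 152 and 168 in irradiated cells. The groups did not overlap, but it was not called (0.91, SE 0.30, limma adjusted p = 0.0795). The relative Eif4g2, which lacks the eIF4E-binding region, was not called either (0.40, limma adjusted p = 0.269).

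Eif4e, which binds the cap itself, measured 153, 125 and 129 FPKM in controls and 150.0, 138 and 132 in irradiated cells. The groups overlapped throughout, and its difference of 0.05 (SE 0.14) became -0.11 with trimmed-mean scaling. Among the helicases, Eif4a1 measured 557, 420.3 and 534 FPKM in controls and 405, 396 and 431 in irradiated cells, overlapping only through control 2. Its log2 fold change was -0.28 (limma adjusted p = 0.223) and turned to 0.16 with quantile normalization. Eif4a2, the less abundant paralog, measured 67.5, 52.8 and 80.8 FPKM in controls and 89.9, 90.6 and 83.2 in irradiated cells. These did not overlap, and it was not called (0.41, limma adjusted p = 0.136).

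Promoters are shown for Eif4e, Eif4g1 and Eif3f, a cap-binding protein, a scaffold and an eIF3 subunit, none of them called. They were picked for sharing an E-box, the letters CACGTG bound by MYC-family factors, and their log2 fold changes differed (0.05, 0.91 and -0.80). Each run is the 250 bases before a RefSeq start site in GRCm38.p6, on the plus strand, with the E-box in capitals, and that of Eif4g1 stops after 246 bases, where an annotated exon begins. They are chr3:138527018-138527267 for Eif4e, chr16:20672477-20672722 for Eif4g1 and chr7:108934165-108934414 for Eif3f.
Eif4e: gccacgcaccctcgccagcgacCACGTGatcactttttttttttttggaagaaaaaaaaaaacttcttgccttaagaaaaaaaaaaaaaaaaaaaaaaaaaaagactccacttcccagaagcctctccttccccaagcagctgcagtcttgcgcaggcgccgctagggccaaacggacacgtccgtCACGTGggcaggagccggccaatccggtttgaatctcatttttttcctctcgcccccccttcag
Eif4g1: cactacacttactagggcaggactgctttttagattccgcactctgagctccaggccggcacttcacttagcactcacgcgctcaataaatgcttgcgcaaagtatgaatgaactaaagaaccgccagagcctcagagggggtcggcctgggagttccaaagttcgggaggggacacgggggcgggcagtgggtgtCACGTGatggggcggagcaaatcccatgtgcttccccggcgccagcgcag
Eif3f: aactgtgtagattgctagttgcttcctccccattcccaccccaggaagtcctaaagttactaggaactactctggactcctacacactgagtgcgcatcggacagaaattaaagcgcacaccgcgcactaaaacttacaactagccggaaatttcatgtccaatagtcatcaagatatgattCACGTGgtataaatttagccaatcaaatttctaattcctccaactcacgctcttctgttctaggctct
The E-box begins 228 and 64 bases before the start site in Eif4e, 54 in Eif4g1 and 68 in Eif3f. Of 51 promoters listed for 39 of the members, 12 (23.5%) held it in a window of 300 bases around the start, against 9.92% of the 11420 promoters of genes tested and 7.15% of all 32851. The ETS letters CCGGAAG were in 18 (35.3%), against 18.6% and 8.86%. Neither motif was found for the called members Eif1, Eif4b and Eif4g3, and the called Eif3i had no promoter listed. Both motifs were chosen after the data were seen and searched on both strands, and a match of letters is a description, not a site.

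The 4 repressors of cap binding included no called member. All 4 had an unadjusted limma p below 0.05, as did 38.3% of all genes tested, with 2 above 0 and 2 below. Eif4ebp1, the most abundant 4E-BP, measured 603, 697 and 654 FPKM in controls and 440, 499 and 458 in irradiated cells. All irradiated libraries were below all controls, at -0.48 (SE 0.14, limma adjusted p = 0.0645), which shrank to -0.02 with quantile normalization. Eif4ebp2 was higher in each irradiated library (0.38, limma adjusted p = 0.0793). Eif4ebp3 measured 15.8, 28.4 and 6.29 FPKM in controls and 6.08, 6.90 and 4.94 in irradiated cells. Control 3 lay within the irradiated range, and the fitted difference of -1.15 (SE 0.47, limma adjusted p = 0.127) was -0.07 against control 3 alone. Eif4enif1, which carries eIF4E into the nucleus, measured 18.8, 14.9 and 21.9 FPKM in controls and 25.3, 23.4 and 24.1 in irradiated cells. These did not overlap, and it was not called (0.39, limma adjusted p = 0.128).

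Ratios between factors within a library do not depend on that library's overall scale. A trend with transcript length, described below, need not cancel where lengths differ, as for Eif4g1 (5440 bases) and Eif4e (792.5). The ratios were not recomputed after a correction for length. The ratio of Eif4ebp1 to Eif4ebp2 was 31.9, 33.7 and 28.5 in controls and 16.4, 17.7 and 17.0 in irradiated cells. That of Eif4a1 to Eif4a2 was 8.25, 7.95 and 6.61 against 4.51, 4.37 and 5.18. For both pairs every irradiated library was below every control, control 3 included. The ratio of Eif4g1 to Eif4g2 was 0.708, 0.652 and 0.75 in controls and 1.03, 0.985 and 0.989 in irradiated cells. Eif4e to Eif4ebp1, the cap-binding protein over its main repressor, was 0.254, 0.179 and 0.198 against 0.341, 0.277 and 0.289. Both were higher in every irradiated library. Of 17 ratios compared, 7 did not overlap, the other 3 being Eif4g1 to Eif4e, Eif1 to Eif1b and Eif4ebp2 to Eif4ebp3. For single genes the groups did not overlap in 45.4% of all those tested, and the share among other pairs of genes was not computed. Each of the 7 had an exact two-sided permutation p of 0.1, the smallest that 3 libraries against 3 can give, and a Benjamini-Hochberg value of 0.243, so none passed. The pairs were chosen with the members' values known.

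**Figure D4:**
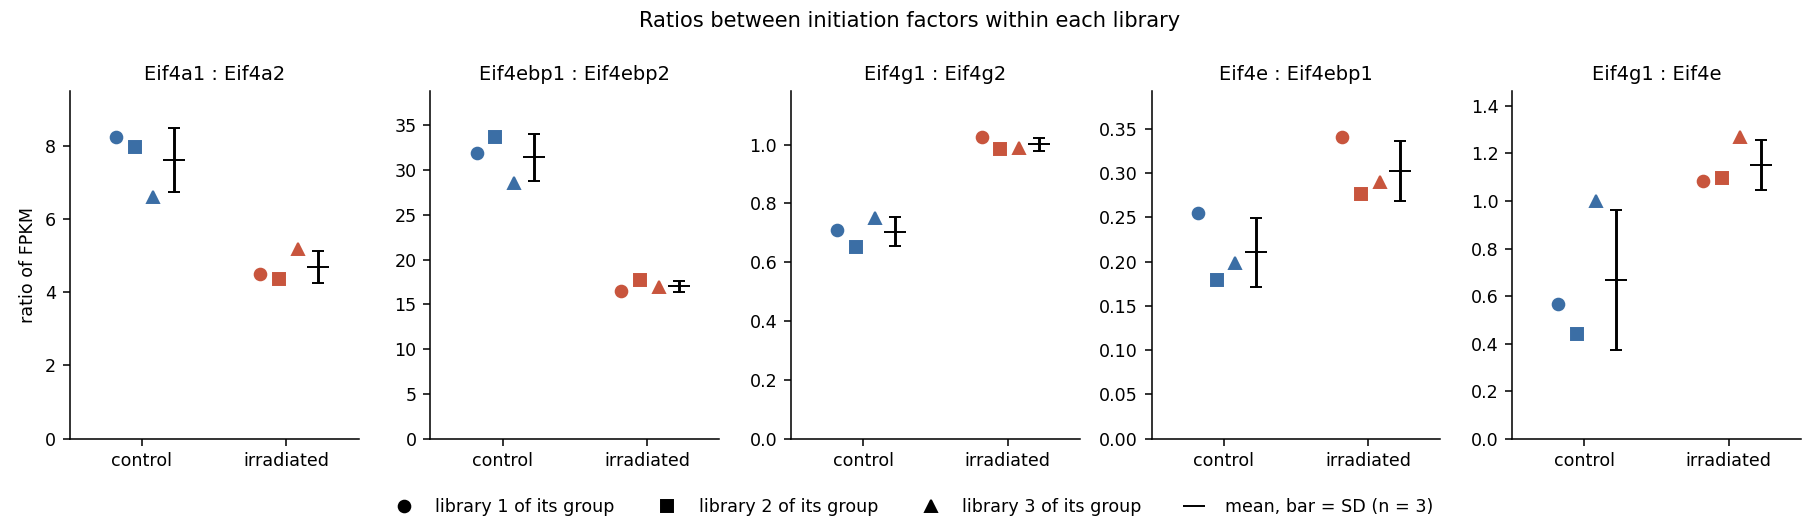
Ratio of FPKM between pairs of initiation factors within each library (vertical axes, starting at 0), with the mean and SD of 3 libraries. The ratio of Eif4ebp1 to Eif4ebp2 was 28.5 to 33.7 in controls and 16.4 to 17.7 in irradiated cells. The 5 ratios shown are among the 7 of 17 compared that did not overlap between groups.

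Start codon and scanning factors had 1 call among 5 members, where 12.0% of all genes were called, and a median of -0.42. Eif1 (NCBI gene 20918, chr11:100319949-100322099), which keeps the scanning ribosome from starting at the wrong codon, measured 696, 851 and 475 FPKM in controls and 318, 318 and 336 in irradiated cells. The groups did not overlap, and control 3 lay between the other controls and the irradiated libraries. Eif1 fell by 1.01 on the log2 scale (SE 0.23, limma adjusted p = 0.0394), by 0.55 against control 3 alone and by 1.39 against control 2 alone. Its call was lost without the filter on low values (adjusted p = 0.052). Eif1a, which works beside eIF1, measured 58.5, 50.3 and 67.7 FPKM in controls and 59.4, 64.2 and 61.7 in irradiated cells. Its groups overlapped, and its 0.08 became -0.08 with trimmed-mean scaling. Reads of Eif1 and Eif1b, and of Eif1a and Eif1ax, may be split between these related genes, whose sequence similarity was not measured.

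eIF2 and the factors that deliver the initiator tRNA had no call by limma among 5 members, with a median of 0.11. There was 1 unadjusted p below 0.05, where 38.3% of all genes had one. Eif2s1, the alpha subunit that stress kinases phosphorylate, measured 57.5, 42.0 and 49.8 FPKM in controls and 60.8, 56.3 and 63.6 in irradiated cells, overlapping through control 1. Its log2 fold change was 0.28 (limma adjusted p = 0.205). Eif2s2, the beta subunit, measured 182, 262 and 201 FPKM in controls and 130.1, 133 and 149 in irradiated cells. It did not overlap and missed the threshold (-0.63, SE 0.17, limma adjusted p = 0.0576). Eif2s3x, the gamma subunit, measured 61.4, 49.4 and 75.7 FPKM in controls and 79.8, 76.2 and 86.1 in irradiated cells. The separation from control 3 was small, and it was not called (0.39, limma adjusted p = 0.149).

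Letters of the interferon-stimulated response element (GAAA, any pair of bases, GAAA) are shown for Eif3a, a member that was not called, as an example of a match. An effect of interferon on the members was not tested. The run is 30 bases of GRCm38.p6 from a RefSeq promoter, chr19:60790885-60790914 on the minus strand, with the match in capitals.
Eif3a: agaccgcaaaTTTCCCTTTCccactctgtg
The match begins 211 bases before the start site and reads on the opposite strand. Matches on either strand were found in 3 of the 51 promoters (5.88%), those of Eif2s1, Eif2s3x and Eif3a, against 3.03% of promoters of genes tested. The letters TGATGNAA of the amino acid response element were in 1 (1.96%, Eif2s3x), against 2.22%.

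The eIF2 kinases and other genes of the integrated stress response had 1 of 10 called higher and none lower, near the 9.24% and 2.77% of all genes. Of the 10, 5 had an unadjusted p below 0.05, where 38.3% of all genes did. Eif2ak2, the double-stranded RNA sensor PKR, measured 13.2, 15.0 and 13.2 FPKM in controls and 53.1, 58.7 and 43.3 in irradiated cells. It rose by 1.82 (SE 0.15, limma adjusted p = 0.00179), as much against control 3 (1.88) as against control 1 (1.88). Atf4, the transcription factor translated when eIF2 is phosphorylated, measured 353, 347 and 686 FPKM in controls and 222, 228 and 237 in irradiated cells. These did not overlap, and it was not called (-0.93, limma adjusted p = 0.0661). Its difference from control 3 alone was the largest (-1.58). Eif2ak1, Eif2ak3 and Impact were above all controls in every irradiated library and were not called (limma adjusted p = 0.107, 0.0781 and 0.108). Ddit3 measured 25.95, 29.76 and 111.4 FPKM in controls and 57.68, 59.31 and 50.41 in irradiated cells, so control 3 stood apart from the other controls for this stress gene.

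All 5 eIF2B subunits had a log2 fold change below 0, from -0.37 to -0.19, and none was called by limma. None had an unadjusted p below 0.05, where 38.3% of all genes did. Eif2b4, a regulatory subunit, measured 33.8, 40.4 and 19.8 FPKM in controls and 22.5, 20.3 and 26.6 in irradiated cells. Eif2b3, of the catalytic part, measured 45.6, 50.9 and 30.9 against 36.1, 33.5 and 40.0. For both, control 3 was below every irradiated library, and the differences from control 3 alone were 0.21 and 0.23. The median of the 5 subunits was -0.25, and 0.07 against control 3 alone.

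eIF3, the largest factor, had 1 call among 14 subunit genes, where 12.0% of all genes were called, and a median of -0.24. Eif3i (NCBI gene 54709, chr4:129591974-129600648) measured 262, 286 and 215 FPKM in controls and 156, 161 and 162 in irradiated cells. The groups did not overlap, and Eif3i fell by 0.66 (SE 0.15, limma adjusted p = 0.0401). After a correction for transcript length and GC content the difference was -0.34 (adjusted p = 0.0516). Eif3f measured 246, 329 and 195 FPKM in controls and 136, 151 and 145 in irradiated cells. These did not overlap either, and the gene missed the threshold (-0.80, SE 0.21, limma adjusted p = 0.0517). Eif3m was close to it as well (-0.47, limma adjusted p = 0.0526).

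The 4 eIF3 subunits with a log2 fold change above 0 (Eif3a, Eif3c, Eif3h and Eif3l) were not called. Eif3a, the largest subunit and a core scaffold, measured 72.8, 68.4 and 99.7 FPKM in controls and 102, 98.3 and 107 in irradiated cells, overlapping through control 3 (0.37, limma adjusted p = 0.156). Eif3c, its core partner, measured 142, 126 and 245 FPKM in controls and 177, 179 and 193 in irradiated cells. Control 3 was above every irradiated library, and the log2 fold change of 0.16 became -0.00 with trimmed-mean scaling. Subunit transcripts were far from equal: Eif3j1 was lowest in all 6 libraries, Eif3h was highest in all but control 2, where Eif3k was, and the highest exceeded the lowest 15-fold to 33.5-fold. Reads of Eif3j1 and Eif3j2 may be split between near-identical copies.

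Factors of subunit joining and later steps had no call by limma among the 4 of 5 members tested, and all 4 were below 0 with a median of -0.45. None had an unadjusted p below 0.05, where 38.3% of all genes did. Eif5a, the hypusine-bearing factor that also aids elongation, was the most abundant member, at 1572, 1758 and 1003 FPKM in controls and 1027, 1026 and 1064 in irradiated cells. Control 3 was below the irradiated libraries, and the log2 fold change of -0.44 (limma adjusted p = 0.206) turned to 0.11 with quantile normalization. Eif5b, the GTPase that joins the subunits, measured 52.5, 82.7 and 29.0 FPKM in controls and 33.0, 31.6 and 34.3 in irradiated cells (-0.59, limma adjusted p = 0.237). Eif5, the GTPase activator of eIF2, measured 83.2, 121.5 and 53.1 against 66.8, 65.2 and 71.9 (-0.26, limma adjusted p = 0.516). Eif6, which keeps the large subunit from joining early, measured 206, 254 and 126 against 125, 142 and 138 (-0.47, limma adjusted p = 0.215). For each of these 4 genes controls 1 and 2 lay above every irradiated library, control 3 lay below them all (for Eif6, within their range), and the group's median against control 3 alone was 0.14.

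Genes of neighbouring steps are given from lists, each too short to be read against the 12.0% of all genes called. Of 13 genes by which mTORC1 and the MNK kinases control the cap complex, Rps6kb1, the S6 kinase that phosphorylates eIF4B, rose (12.2 ± 3.63 to 25.1 ± 1.70 FPKM, SD, n = 3 each, log2 fold change 1.02, limma adjusted p = 0.0321). No other was called, and 3 of the 13 had an unadjusted p below 0.05. Of 9 elongation and release genes, the release factor Gspt2 rose (6.21 ± 1.06 to 11.4 ± 0.211 FPKM, 0.79, limma adjusted p = 0.0262). None was called lower, and 3 of the 9 had an unadjusted p below 0.05. Eef1b2 (-0.77, limma adjusted p = 0.0506) and Eef1d (-0.98, limma adjusted p = 0.116) were below every control in all irradiated libraries. Gspt1 and Gspt2 were above every control. None of 5 poly(A)-binding proteins and partners was called, with 1 at an unadjusted p below 0.05: Pabpc1, which bridges the mRNA tail to eIF4G, at 0.88 (limma adjusted p = 0.0701). None of 8 accessory and recycling factors was called, with 1 at an unadjusted p below 0.05. Over all genes tested 38.3% had an unadjusted p below 0.05. The lists' medians were 0.29, -0.08, 0.33 and 0.13, beside 0.17 over all genes.

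Longer transcripts tended to have higher log2 fold changes, among members as among all genes. Spearman's rho across the 48 members was 0.40, and 0.43 across 10930 genes, given as a description since genes share libraries. The same trend divided the controls: rho between length and control 1 minus control 3 was -0.43 across members and -0.48 across all genes, and with the difference from control 3 alone as the outcome it was 0.19 and 0.11. Members had a median transcript length of 2178 bases (744 to 7797), and those above all controls had a longer median (3059) than those below (2403). After each library was corrected for length and GC content, Eif1, Eif4b and Eif4g3 remained called and Eif3i did not. Eif4e3, a cap-binding relative, was then called higher (0.50), and Eif3f (-0.83), Eif4ebp1 (-0.45) and Eif4h (-0.35) lower. That made 2 of 48 members higher and 5 lower, where 12.4% and 4.23% of 10930 genes were called, and the members' median was -0.13 beside 0.14 for all genes.

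**Figure D5:**
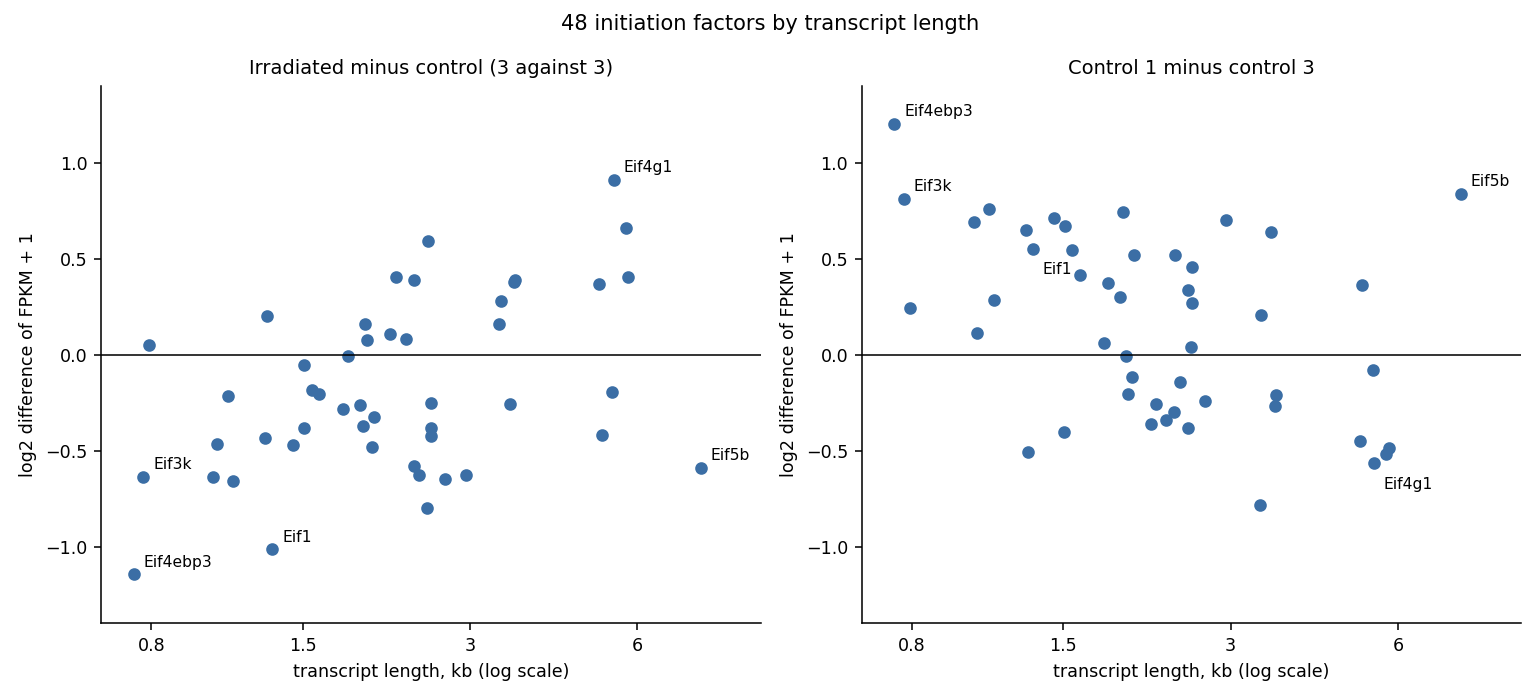
Log2 difference of FPKM + 1 (vertical axes) against transcript length in kb (horizontal axes, log scale) for 48 initiation factors, for irradiated minus control on the left and control 1 minus control 3 on the right. Spearman's rho is 0.40 on the left and -0.43 on the right.

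None of the 4 calls held when control 1, control 2 or any irradiated library was left out, with limma adjusted p between 0.069 and 0.202 for Eif1, 0.0753 and 0.207 for Eif3i, 0.0618 and 0.201 for Eif4b and 0.104 and 0.213 for Eif4g3. All 4 held without control 3, but there 7638 of 11053 genes were called, with 12 members higher and 27 lower. Exons of 14 members overlap another gene, and whether counting used strand is not given in the sources used here.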

How the data were processed

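RNA was sequenced from 3 untreated and 3 irradiated samples of SCC7 cells. The authors deposited FPKM per gene, per the file headers, rounded to 2 decimals. HISAT and GRCm38.p6 are named in the submitters' processing notes, while the counting tool and annotation were not named there or in the labels. Read numbers could not be recovered from FPKM, so depth and counting precision are unknown. FPKM depends on the assigned transcript length and library total. Groups came from the treatment labels. The 11103 genes reaching 1 FPKM in 3 or more libraries were tested on log2(FPKM + 1), which understates changes of low genes, with limma 3.58.1 in R 4.3.3 (eBayes with trend and robust options, Benjamini-Hochberg adjustment over all genes tested, called below 0.05). The procedure was tested on simulated data with independent noise and, for each gene, the same SD in both groups. Those data lacked the wider spread of the controls seen here, so they cannot give the error rate of these calls. Trimmed-mean scaling factors (a trimmed mean of log ratios) were computed directly from FPKM. Values per library were named for called members, a fixed set of 12 and the extremes of each complex. Members and lists were chosen with earlier results of these data known. Lengths came from GENCODE transcripts, and coordinates and promoters from RefSeq, both of GRCm38.p6. Alternatives were other scalings, filters, moderation and pseudocount, the sample number as a block, leaving out each library, single controls and, added after seeing the data, a length and GC correction (splines with 4 degrees of freedom).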

Additional observations from a re-analysis of the deposited data

How the results depend on the processing

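The counts rest on the choice of libraries more than on the settings of the test. Leaving out 1 library at a time gave 56 to 7638 called genes against 1334 (46 to 5067 higher, 10 to 2571 lower), 0 to 12 members higher, 0 to 27 lower, and a members' median of -0.40 to -0.16. The top of each count came without control 3, when 7638 of 11053 genes were called and 39 members had an unadjusted p below 0.05. Without any other library no member was called by limma, with 10 to 14 at an unadjusted p below 0.05. With the sample number as a replicate block, 300 genes were called (260 higher, 40 lower) and 0 members in either direction, with 13 at an unadjusted p below 0.05. Same-numbered samples did not deviate together (correlations -0.11, 0.02 and -0.16), so the numbers were not taken as pairs. Quantile normalization called 663 genes higher and 564 lower and gave a members' median of -0.06. Trimmed-mean scaling called 0 members higher and 6 lower, with a median of -0.41. A filter at 5 FPKM called 727 genes (506 higher) and 0 members higher, and a pseudocount of 0.1 also called 0 members higher, with 17 members at an unadjusted p below 0.05 in both. Limma without trend and robust options called 5 members lower. With no filter the 1 member called higher was Eif4a3l1 in place of Eif4g3. The length and GC correction called 2 members higher and 5 lower (1357 and 462 of 10930 genes), with a median of -0.13 (0.14 over all genes). Against controls 1, 2 and 3 alone the median was -0.36, -0.46 and 0.01. Apart from single controls, signs were followed in every setting only for called members, the fixed set of 12 and the extremes of each complex. Among these, 6 uncalled members changed sign: Eif1a with trimmed-mean scaling (-0.08) and without control 2 (-0.03), Eif3c likewise (-0.00 and -0.03), Eif4e likewise (-0.11 and -0.01) and without irradiated 1 (-0.00), Eif5 without control 2 (-0.26 to 0.03), and Eif4a1 (-0.28 to 0.16) and Eif5a (-0.44 to 0.11) with quantile normalization. Of the other members, Eif2a (0.08 to -0.00), Eif2b2 (-0.21 to 0.05), Eif3g (-0.22 to 0.17) and Eif4e2 (-0.01 to 0.09) changed sign with the length and GC correction. With each library left out in turn Eif1a ranged from -0.03 to 0.18, Eif3c from -0.03 to 0.45, Eif4e from -0.01 to 0.14 and Eif5 from -0.56 to 0.03. The cause was not tested. Because FPKM hold no read number, what depth limits is unknown.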

Other observations

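The 3 members below the filter were listed at or near 0. The retrocopy Eif4a3l1 was listed at 0.04, 0 and 0.09 FPKM in controls 1 to 3 and 0.25, 0.45 and 0.34 in irradiated libraries 1 to 3, so that its groups did not overlap, and it may share reads with the abundant Eif4a3, of which it is a near copy. Eif4e1b did not exceed 0.04 FPKM and Eif5a2 did not exceed 0.07 FPKM in any library.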
